A study of Mus musculus with 2 samples.

Results

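Elastic fibre genes encode elastin, the microfibrils on which it is laid down, the fibulins that link the parts, and the enzymes that crosslink them. The 10 genes described here were taken by name (Eln, Fbn1, Fbn2, Mfap4, Mfap5, Fbln1, Fbln2, Fbln5, Lox and Loxl1) and matched through their NCBI gene numbers among the 41709 genes of the deposited tables. All 10 were found, and all 10 reached 50 reads in at least 1 library, the minimum for a gene to count as measured. Polyadenylated RNA came from whole lung of C57BL/6 mouse embryos at day E14.5, in 1 control library labelled wild type in the series design and 1 library labelled Prmt5 knockdown, whose title names both Shh and Prmt5. Each library was a pool of 7 lungs. How either gene was altered, and in which cells, is not given in the sources used here. With 1 pool per group there was no spread between replicates, so no p-value is given, and every interval covers counting error only.

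Elastin is secreted as a soluble monomer, collected on a scaffold of fibrillin microfibrils and made insoluble by crosslinks that lysyl oxidases start. In the lung the fibres give the vessels, airways and later the alveolar walls their recoil. They are made by smooth muscle cells, fibroblasts and mesothelium, and large arteries, heart valves and skin hold them as well. In whole-organ RNA, fewer cells of a type and less RNA per cell cannot be told apart.

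Among the 10 genes, 4 were higher in the knockdown library (Mfap5, Fbln2, Fbln5 and Loxl1), 2 were lower (Fbn2 and Fbln1) and 4 did not pass the rule of size (Eln, Fbn1, Mfap4 and Lox). The rule asked for a ratio of knockdown over control of at least 1.5, or its inverse, and a 95% counting interval that excluded 1. Of all 14569 measured genes, 20.7% passed it as higher, 12.3% as lower and 33.0% in either direction. The median log2 ratio of the 10 genes was 0.07, and that of all measured genes was -0.01. Summed over the 10 genes, reads were 72706 in control lung and 76608 in knockdown lung, a log2 ratio of -0.01 (-0.02 to 0.01). The summed output was thus close to equal under the main scaling, while single genes lay between 1.99-fold lower and 5.13-fold higher. As a share of total counts, the sum was 0.322% (0.3196 to 0.3243) in control lung and 0.297% (0.2945 to 0.2987) in knockdown lung. The near equality of the sum therefore depended on scaling. The split of calls depended on scaling, and Fbln1 (1.51-fold lower), Lox (1.46-fold lower) and Loxl1 (1.55-fold higher) lay next to the bar of 1.5. At a ratio of 2, which 14.0% of measured genes passed as higher and 4.83% as lower, 3 members were higher and none lower. At 1.5 the split was 3 higher and 3 lower with total counts, 4 and 1 with DESeq2 size factors, and 3 and 5 with fibrillar collagen reads as the scale, an alternative chosen after seeing the data. With collagen reads, Fbn1 (1.55-fold) and Mfap4 (1.62-fold) passed as lower too. The shares over all measured genes are those of the main scaling and were not computed for the other scalings. The median log2 ratio of all measured genes was -0.12 with total counts, 0.02 with DESeq2 size factors and -0.34 with collagen reads.

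**Figure D1:**
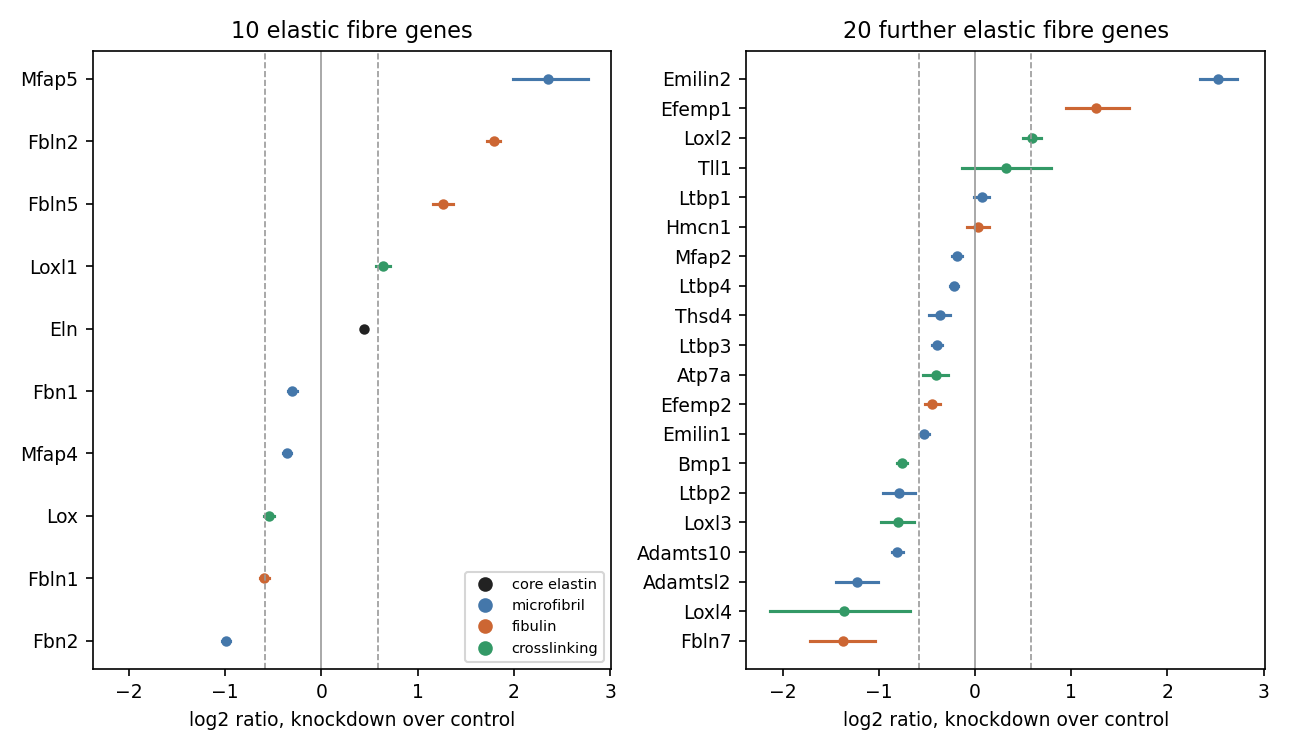
The log2 ratio of knockdown over control for the 10 elastic fibre genes (left) and 20 further genes of the same fibres (right), coloured by role, with points for the ratio, bars for the 95% counting interval and dashed lines at a ratio of 1.5 in either direction. Mfap5 and Fbln2 lie farthest to the right on the left side, and Fbn2 lies farthest to the left.

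A sequence feature shared by some of the genes is a match to the seed of the miR-29 family, microRNAs known for binding the messages of elastin and collagens. The 3 mature forms are shown because they carry 1 common seed (bases 2 to 8, in capitals), taken from RefSeq on GRCm38.p6.
mmu-miR-29a-3p: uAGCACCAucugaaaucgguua
mmu-miR-29b-3p: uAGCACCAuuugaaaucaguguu
mmu-miR-29c-3p: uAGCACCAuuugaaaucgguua
The motif TGGTGCT, complementary to that seed, was searched on the transcript strand in the longest annotated 3′ UTR of each gene (GENCODE annotation of GRCm38). It was found in 5 of the 10 genes, with 3 matches in Eln, 2 in Fbn1, 2 in Mfap5, 1 in Fbn2 and 3 in Lox. By comparison, 13.1% of 21020 genes with a 3′ UTR held at least 1 match. The density was 0.683 matches per kb of 3′ UTR over the 10 genes and 0.106 over all genes, with a mean 3′ UTR length of 1610 and 1481.5 bases. The family is already known for binding such messages, so the higher share and density are not a finding of these data. For Eln, Fbn1 and Mfap5, 6 of the matches are given here, in capitals, because these genes had the densest matches.
Eln, chr5:134703732-134703755, minus strand: cctcatcaacgtTGGTGCTactgc
Eln, chr5:134703485-134703508, minus strand: tccaagggaaatTGGTGCTacatg
Fbn1, chr2:125301169-125301192, minus strand: ctgttgtctgttTGGTGCTagtaa
Fbn1, chr2:125300919-125300942, minus strand: gagggtttgtaaTGGTGCTtatta
Mfap5, chr6:122528563-122528586, plus strand: tctaattttcacTGGTGCTggtaa
Mfap5, chr6:122528786-122528809, plus strand: attttttttaaaTGGTGCTatgaa
The 5 genes with a match went both ways in the RNA, from Fbn2 at a log2 ratio of -0.99 to Mfap5 at 2.36. The 5 without one did so too, from Fbln1 at -0.59 to Fbln2 at 1.79. A match is a description of the letters, and mature microRNAs were not measured in these libraries.

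Elastin itself was abundant in both libraries. Eln (NCBI gene 13717, chromosome 5, 134702595 to 134747368 on GRCm38.p6) had 19251 reads in control lung and 27710 in knockdown lung. Its level per length was 233 and 294 FPKM, where FPKM is the read count scaled to gene length and to library total. The ratio of knockdown over control was 1.36 (1.33 to 1.38), or 0.44 on the log2 scale, above 1 beyond counting error but short of the rule of size. It stood at percentile 75.2 of the log2 ratios of all measured genes. The noncoding gene Gm30003, which overlaps Eln, had 15 and 20 reads. The ratio of Eln to Col1a2, a chain of fibrillar collagen I made by mesenchymal cells, was 0.689 per length in control lung and 0.691 in knockdown lung. That ratio changed by 0.0042 on the log2 scale (-0.03 to 0.04), so the proportion of elastin to this chain was the same within counting error. The ratios of Eln to the fibrillar collagen genes Col1a1 and Col3a1 were higher in knockdown lung beyond counting error, by 0.09 (0.06 to 0.12) and 0.22 (0.19 to 0.25) on the log2 scale. Against Acta2, the smooth muscle actin, Eln went from a ratio of 0.657 to 0.954, a 1.45-fold change (1.41 to 1.49).

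The microfibril genes differed among themselves, with Mfap5 higher, Fbn2 lower and Fbn1 and Mfap4 short of the rule. Fibrillins are the long rod-like proteins from which the microfibril is built, and fibrillin-2 is the form best known from embryonic tissue. Fbn2 (NCBI gene 14119, chromosome 18, 58008623 to 58210572) had 14327 reads in control lung and 7621 in knockdown lung, or 63.5 and 29.5 FPKM. It was 1.99-fold lower (1.94 to 2.05), the lowest of the 10 genes, at percentile 4.87 of all measured genes. Fbn1 (NCBI gene 14118, chromosome 2, 125300594 to 125506485) had 7374 and 6337 reads, or 33.9 and 25.4 FPKM. Its ratio was 1.23-fold lower (1.19 to 1.28) and did not pass the rule.

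Within each library, Fbn2 stood above Fbn1 per length, 1.87 times in control lung and 1.16 times in knockdown lung. This ratio of 2 genes does not depend on how the libraries are scaled, and it was 1.62-fold lower in the knockdown library (log2 -0.69, -0.75 to -0.63). The noncoding gene Gm41741, which overlaps Fbn2, had 5 reads in each library.

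The microfibril-associated proteins showed the widest contrast in level. Mfap4, a fibrinogen-related glycoprotein of microfibrils (NCBI gene 76293, chromosome 11, 61485431 to 61488708), had 10133 reads in control lung and 8373 in knockdown lung. At 283 FPKM it was the most abundant of the 10 genes in the control, and it had 205 FPKM in the knockdown library, 1.28-fold lower (1.25 to 1.32) and not past the rule. Mfap5, a small glycoprotein that binds fibrillin (NCBI gene 50530, chromosome 6, 122513584 to 122529290), was the least abundant in both libraries. It had 66 and 361 reads, or 2.41 and 11.5 FPKM, and was 5.13-fold higher (3.96 to 6.81). The Mfap5 interval was the widest of the 10, since it rested on 66 control reads. Per length, Mfap5 amounted to 0.00850 of Mfap4 in control lung and 0.0563 in knockdown lung. The 4 microfibril genes together made up 43.1% of the summed FPKM of the 10 genes in control lung and 32.2% in knockdown lung.

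Of the fibulins, Fbln2 and Fbln5 were higher and Fbln1 lower. Fibulins are calcium-binding glycoproteins that bridge elastin, microfibrils and basement membranes, and fibulin-5 binds elastin and lysyl oxidase-like enzymes. Fbln2 (NCBI gene 14115, chromosome 6, 91212460 to 91272540) had 2261 reads in control lung and 8290 in knockdown lung, or 22.9 and 73.5 FPKM. It was 3.46-fold higher (3.30 to 3.62). Fbln5 (NCBI gene 23876, chromosome 12, 101746565 to 101819119) had 988 and 2515 reads, or 13.3 and 29.6 FPKM, and was 2.40-fold higher (2.23 to 2.59).

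Fbln1 went the other way. This fibulin of vessel walls and basement membranes (NCBI gene 14114, chromosome 15, 85205949 to 85286294) had 8823 and 6202 reads, or 137 and 84.3 FPKM. It was 1.51-fold lower (1.46 to 1.56), with an interval that reached below 1.5. With DESeq2 size factors it was 1.48-fold lower and did not pass the rule. Per length, Fbln2 amounted to 0.167 of Fbln1 in control lung and 0.872 in knockdown lung, a 5.22-fold change (4.93 to 5.52). The corresponding values for Fbln5 over Fbln1 were 0.0970 and 0.351, a 3.62-fold change (3.34 to 3.92). Fbln2 and Fbln5 kept closer to each other, at ratios of 1.72 and 2.48. Fbln1 remained the most abundant of the 3 fibulins in both libraries.

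Of the crosslinking enzymes, Loxl1 was higher and Lox lay below 1 without passing the rule. Lysyl oxidase and its relatives are copper enzymes that oxidise lysines of collagen and elastin, and LOXL1 is known for its part in elastin maintenance. Lox (NCBI gene 16948, chromosome 18, 52516060 to 52529867) had 6980 reads in control lung and 5075 in knockdown lung, or 66.7 and 42.4 FPKM. It was 1.46-fold lower (1.41 to 1.51), short of the rule. With total counts it was 1.57-fold lower and passed. Loxl1 (NCBI gene 16949, chromosome 9, 58287723 to 58313212) had 2503 and 4124 reads, or 33.2 and 47.8 FPKM. It was 1.55-fold higher (1.48 to 1.63), and 1.44-fold with total counts, which did not pass. The ratio of Loxl1 to Lox per length was 0.498 in control lung and 1.13 in knockdown lung, a 2.27-fold change (2.13 to 2.41) that no scaling of the libraries alters. Summed over both enzymes, reads were 9483 and 9199, a log2 ratio of -0.13 (-0.17 to -0.09) after scaling.

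**Figure D2:**
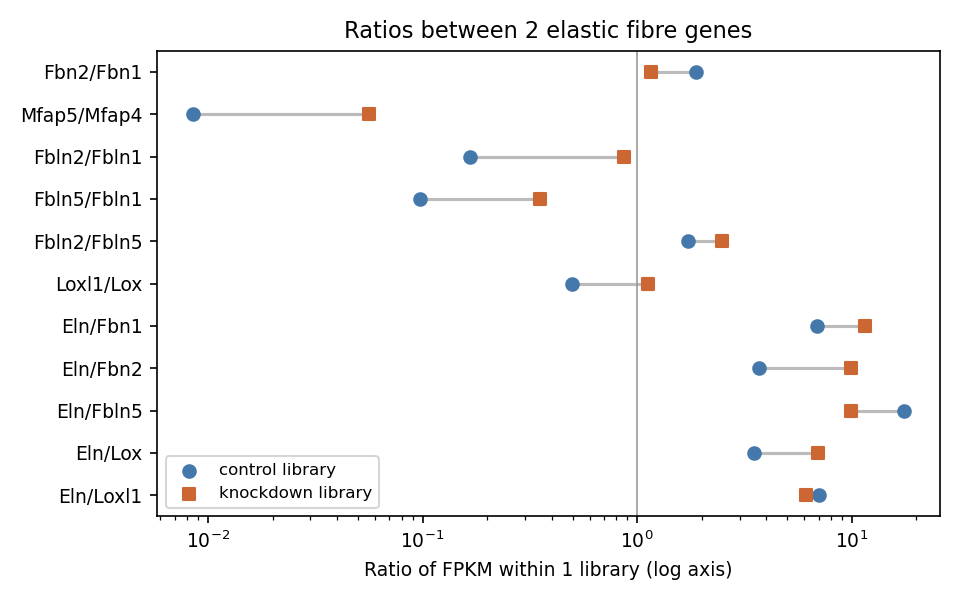
Ratios of FPKM between 2 elastic fibre genes within each library on a log axis, with circles for the control and squares for the knockdown library. Loxl1 over Lox crosses 1, from 0.498 to 1.13, and Fbln2 over Fbln1 comes close to it, from 0.167 to 0.872.

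Set against elastin, its partners differed in both directions. The Eln to Fbn2 ratio per length was 3.67 in control lung and 9.94 in knockdown lung, a 2.71-fold change (2.62 to 2.80). Eln to Fbn1 went from 6.89 to 11.5 and Eln to Lox from 3.49 to 6.92. In contrast, Eln to Fbln5 went from 17.5 to 9.91, a 1.77-fold decrease, and Eln to Loxl1 from 7.02 to 6.14. Of these 5 partners, Loxl1 had the ratio nearest to constant, 1.14-fold lower (log2 -0.19, -0.27 to -0.12).

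The order of the 10 genes by level per length differed between the libraries. In the control it ran Mfap4, Eln, Fbln1, Lox, Fbn2, Fbn1, Loxl1, Fbln2, Fbln5 and Mfap5. Neighbours in that order differed beyond counting error except Fbn1 and Loxl1, at a ratio of 1.02 (0.975 to 1.07). In the knockdown library it ran Eln, Mfap4, Fbln1, Fbln2, Loxl1, Lox, Fbln5, Fbn2, Fbn1 and Mfap5. There the pair within counting error was Fbln5 and Fbn2, with an interval of the ratio from 0.959 to 1.05. Fbn2 thus ranked in place 5 in the control and in place 8 in the knockdown library, and Fbln2 in place 8 and in place 4. Elastin made up 26.2% of the summed FPKM of the 10 genes in control lung and 34.8% in knockdown lung, and the 3 fibulins 19.5% and 22.3%. The crosslinking pair made up 11.2% and 10.7%.

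**Figure D3:**
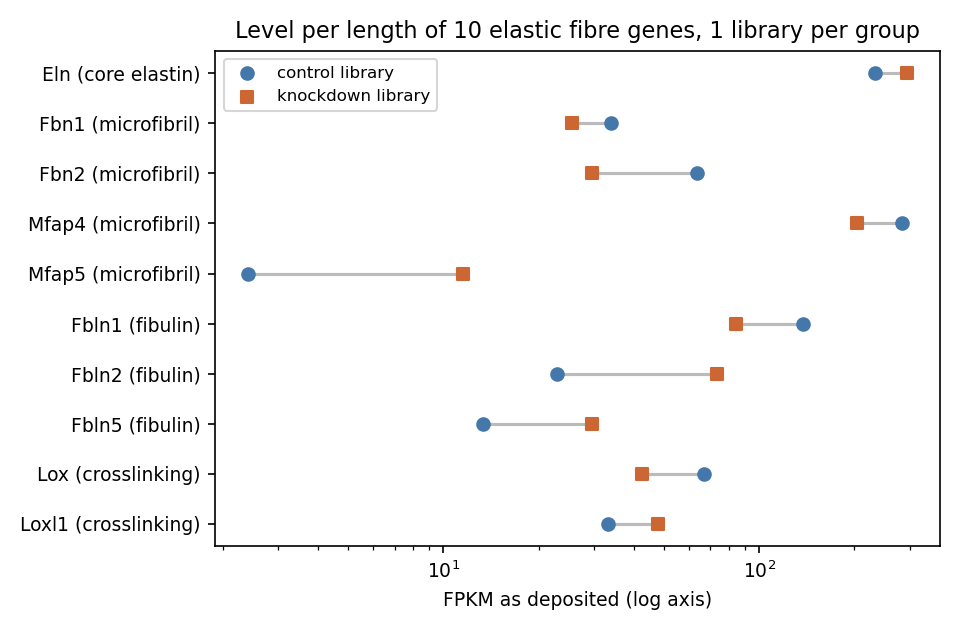
FPKM of the 10 elastic fibre genes on a log axis, with a circle for the control library, a square for the knockdown library and a grey line joining the values of 1 gene. Levels run from 2.41 for Mfap5 in the control to 294 for Eln in the knockdown library, and the squares lie to the right for Eln, Mfap5, Fbln2, Fbln5 and Loxl1.

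A list of 20 further genes of the same fibres had more lower than higher members. Of these 3 were higher, 7 lower and 10 not past the rule, with a median log2 ratio of -0.40. The shares over all measured genes were 20.7% higher and 12.3% lower. With fibrillar collagen reads as the scale, 2 of the 20 were higher and 12 lower. The shares over all measured genes were not computed on that scale, which moved the median of all measured genes to -0.34. Among 10 further microfibril genes, Emilin2, an elastin-interface glycoprotein, was 5.75-fold higher (266 and 1625 reads). The lower members were Adamtsl2 (2.33-fold, 575 and 261 reads) and the microfibril-binding Adamts10 (1.75-fold, 6322 and 3828 reads), together with Ltbp2 (1.73-fold, 769 and 472 reads). The latent TGF-beta binding protein Ltbp4, which also guides elastin assembly, had 10415 and 9516 reads (log2 -0.21), and Emilin1 had 9538 and 7021 (log2 -0.53), both short of the rule. Mfap2, a microfibril glycoprotein related to Mfap5, had 5913 and 5503 reads. Its log2 ratio was -0.19, beside 2.36 for Mfap5.

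Among 4 further fibulin family genes, Efemp1 (fibulin-3) was 2.40-fold higher, with 111 and 283 reads, and Fbln7 was 2.58-fold lower, with 254 and 104. Efemp2, the fibulin-4 gene needed for lysyl oxidase to reach elastin, had 3036 and 2364 reads and a log2 ratio of -0.45, short of the rule, as was Hmcn1 at 0.03. The ratio of Efemp2 to Fbln5 per length was 5.81 in control lung and 1.78 in knockdown lung. Of 6 further crosslinking genes, the lysyl oxidase relative Loxl2 was 1.51-fold higher, at the bar, with 1532 and 2453 reads. Loxl3 (1.74-fold), Loxl4 (2.57-fold, on 59 and 24 reads) and Bmp1, the protease that activates lysyl oxidase (1.69-fold, 8628 and 5401 reads), were lower. The copper pump Atp7a (log2 -0.41) and the Bmp1 relative Tll1 (0.32) did not pass.

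The libraries also differed in markers of other tissues, and whether this had a part in the elastic fibre values was not tested. Prmt5 had 2704 reads in control lung and 2127 in knockdown lung, 1.35-fold lower and short of the rule, and Shh had 1124 and 109, 10.9-fold lower. Beside shares of 20.7% higher and 12.3% lower among all measured genes, the marker lists stood as follows. All 10 heart muscle, all 10 liver and all 8 skeletal muscle markers were higher in the knockdown library. Their summed share of reads was 0.0105%, 0.00594% and 0.00268% in control lung and 0.445%, 1.002% and 0.0956% in knockdown lung. Single markers lay at log2 ratios of 3.72 or more, above each of the 10 elastic fibre genes. The heart gene Nppb was at 0 reads in control lung and at 583 in knockdown lung, which a floor of 3 reads for the control turns into at least 183-fold higher. The median of the heart list with Nppb at that bound was 6.95, beside 7.40 for liver and 5.32 for skeletal muscle. Red blood cell markers had 6 of 8 higher (median 1.90). Of 8 genes of heart valves and great arteries, 4 were higher and 4 lower (median 0.13). Higher were Tbx20 (4.30), Hand2 (3.83), Gata4 (2.89) and Bmp2 (0.92). Lower were Sox9 (-1.30), Scx (-0.99), Tcf21 (-0.76) and Heyl (-0.66). The list shares Tcf21 with the lung mesenchyme list and Sox9 with the epithelium and cartilage lists, so its median is not that of 1 tissue.

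Marker lists of the cells that make elastic fibres in lung differed in direction. For comparison, 20.7% of all measured genes passed the rule as higher and 12.3% as lower. Of 10 general fibroblast markers 6 were higher and none lower (median 1.22), and of 7 mesothelium markers 5 were higher and none lower (median 1.13). The fibrillar collagen genes Col1a1 (0.35), Col3a1 (0.22) and Col1a2 (0.44) of the fibroblast list did not pass, whereas the collagen-binding Dcn (1.57) and Lum (1.69) did. Of 8 lung mesenchyme markers 7 were lower and none higher (median -1.23), with Tbx4 at -2.06 and Foxf1 at -1.87. Of 9 measured smooth muscle markers 2 were higher and 3 lower (median -0.27), with Acta2 at -0.10, Mylk at -1.36 and Des at 1.72. The smooth muscle gene Tagln had 0 and 4 reads, under the minimum for a measured gene, and no absence is read from them. Endothelium markers had 5 of 9 lower (median -0.61), and cartilage markers 2 higher and 1 lower of 6 measured (median -0.01). The labelled tissue was checked on 10 lung epithelium markers, of which 8 were lower (median -2.13). The lung lineage factor Nkx2-1 still had 895 reads in the knockdown library, beside 7550 in the control. The 10 elastic fibre genes spanned -0.99 to 2.36, which overlaps the ranges of all marker lists except heart muscle, liver and skeletal muscle. Lists that overlap include fibroblast (-0.24 to 2.86), lung mesenchyme (-2.06 to 0.38), endothelium (-1.47 to 0.06) and cartilage (-1.30 to 2.31), so the overlap is particular to none. Ranges this wide overlap easily. Neither overlap nor its lack was a test of which tissue the reads came from.

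**Figure D4:**
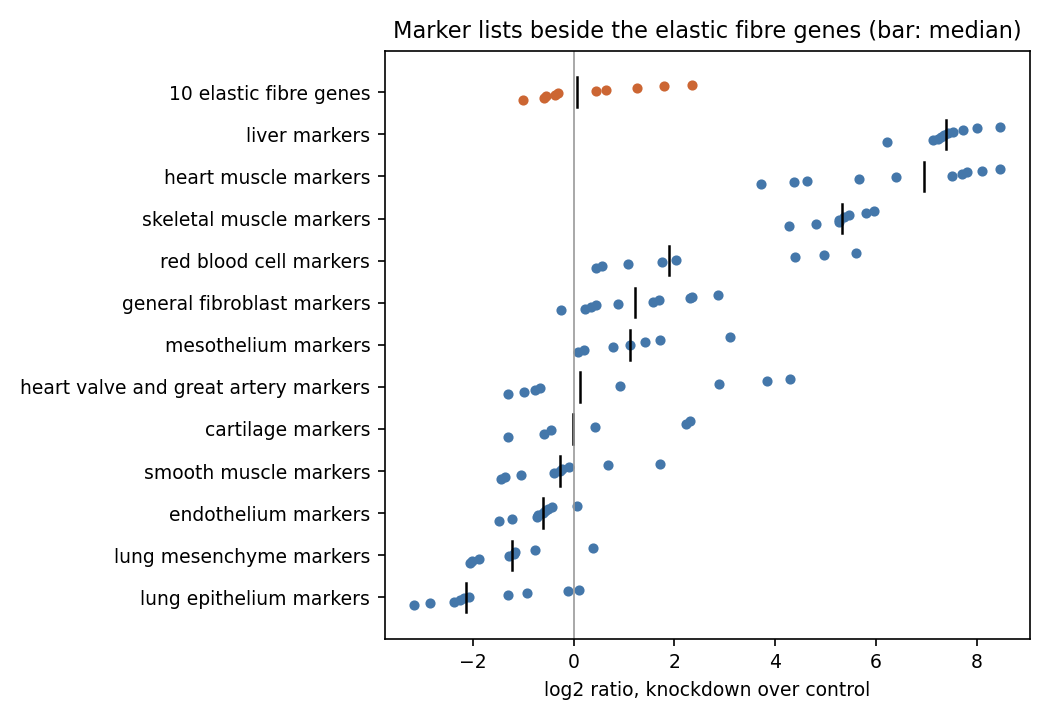
Log2 ratios of knockdown over control for the measured genes of each marker list and for the 10 elastic fibre genes, 1 point per gene, with a bar at the median and Nppb placed at its lower bound. The elastic fibre genes lie around 0 with a median of 0.07, while heart muscle, liver and skeletal muscle markers all lie above 3.

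The calls for Mfap5, Fbln2, Fbln5 and Fbn2 were the same under the main scaling and each of the other scalings, prior counts and read minima tried, apart from Fbn2, which at 1.99-fold missed the stricter ratio of 2. Log2 ratios ran from 1.88 to 2.41 for Mfap5, from 1.46 to 1.85 for Fbln2, from 0.93 to 1.32 for Fbln5 and from -1.33 to -0.94 for Fbn2. The sign of each of the 10 genes was also the same throughout. Eln ran from 0.11 to 0.50 and passed the rule under none of these settings.

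**Figure D5:**
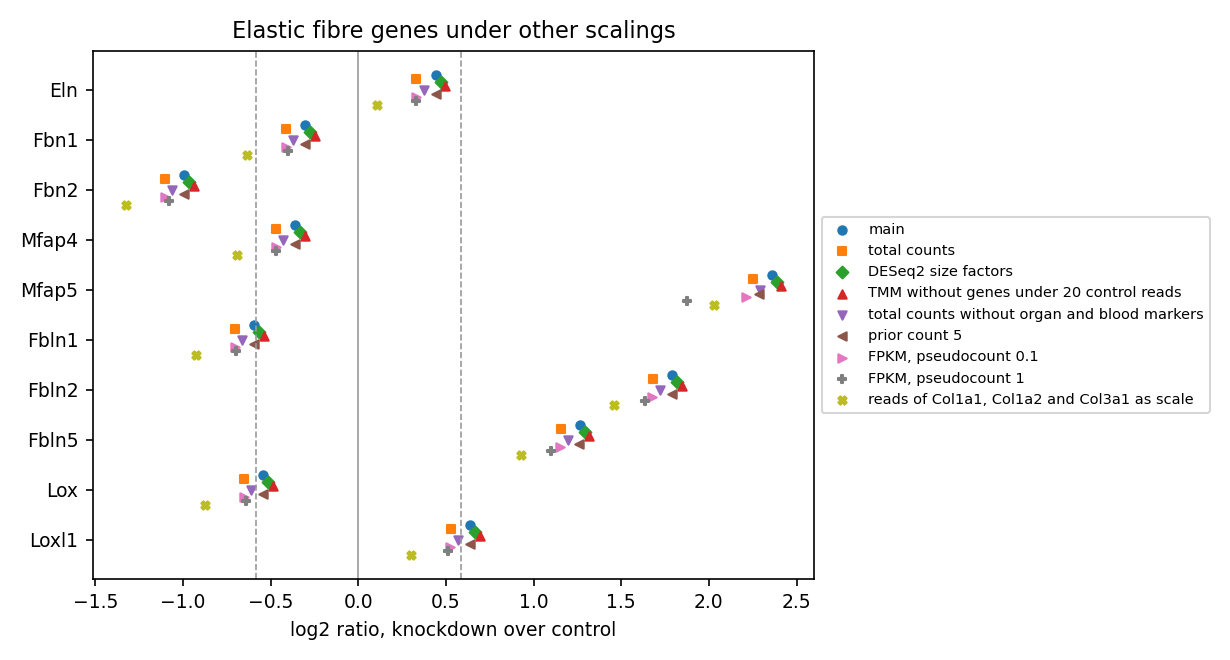
Log2 ratios of the 10 elastic fibre genes under the main scaling, 7 other settings and 1 more chosen after seeing the data (reads of 3 fibrillar collagen genes), with dashed lines at a ratio of 1.5 in either direction. Points of Fbln1, Lox and Loxl1 fall on both sides of a dashed line, those of Fbn1 and Mfap4 cross it with collagen reads alone, and those of Mfap5, Fbln2, Fbln5 and Fbn2 stay on 1 side.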

How the data were processed

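The authors deposited raw read counts per gene and FPKM values for the same genes; per the submitters' processing notes, Bowtie2 2.2.3, TopHat2 2.0.12, HTSeq 0.6.1 and build mm10 were used. The sources used here do not give the annotation or strand setting, so reads of overlapping genes are uncertain. The deposited FPKM equalled the count over gene length and library total (lengths whole within 0.01 bp in 100% of 22831 genes). Totals were 22581490 counts in control lung and 25829281 in knockdown lung. Symbols and coordinates came from RefSeq genes of GRCm38.p6 (40269 genes matched).

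Counts were scaled by the trimmed mean of M values (TMM, edgeR 4.0.16), with a prior count of 0.5. Intervals were exact Clopper-Pearson intervals of the 2 counts given their sum, and for ratios of 2 genes normal intervals on the log scale. They cover counting error only, and PCR copies are not independent molecules. With 1 library per group no test was made. The members, gene lists and settings were chosen with earlier results of these data known. Named were all members, in each list of further elastic fibre and elastin-degrading genes those past the rule of size and, of the others, the 2 with most reads, and up to 3 markers per list by reads. Mfap2, Dcn, Lum, Nppb and Tagln fall outside that rule and were picked with their values in view. Tbx20, Hand2, Bmp2, Scx and Sox9 also fall outside it, since all 8 genes of heart valves and great arteries are named. On simulated counts with known folds, the calculation was tested before use.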

Additional observations from a re-analysis of the deposited data

How the results depend on the processing

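No paired analysis was possible because each group had 1 library, and no replicate could be left out. The sign of the 10 genes' median was not defined. Beside 0.07 it was -0.040 with total counts, -0.0398 with FPKM at a pseudocount of 0.1, -0.034 with FPKM at a pseudocount of 1, and 0.00041 with totals that left out blood, liver, heart and skeletal muscle markers. It was 0.12 when TMM left out genes under 20 control reads, 0.37 as a mean, and -0.26 with fibrillar collagen reads as the scale. Total counts moved the median of all measured genes to -0.12 and collagen reads moved it to -0.34. The count of lower members, 2, became 1 with DESeq2 size factors and with TMM without genes under 20 control reads, 0 at a ratio of 2, and 5 with collagen reads. The further elastic fibre genes had 3 lower in place of 7 at a ratio of 2, and 12 with collagen reads. At a ratio of 2, 4.83% of all measured genes were lower, and no such share was computed for the other scalings. The counting intervals of Fbln1, Lox and Loxl1 include the bar of 1.5, and the interval of Mfap5 is the widest of the 10 because of its few control reads.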

Other observations

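Enzymes that can break down elastin and other matrix, a list of 8 genes, were mostly higher in the knockdown library by number of genes. Their summed reads were not: 23929 in control lung and 23892 in knockdown lung, or 0.106% and 0.0925% of total counts. Of 7 measured, 5 were higher and 1 lower, with a median log2 ratio of 1.26, where 20.7% of all measured genes were higher and 12.3% lower. The neutrophil elastase gene Elane had 1 read in control lung and 388 in knockdown lung (log2 7.95, 6.03 to 13.82). The cysteine proteases Ctsk (95 and 499 reads, 4.93-fold), Ctsl (1966 and 4988 reads, 2.39-fold) and Ctss (286 and 600 reads, 1.98-fold) were higher, as was Mmp9 on few reads (21 and 60, log2 interval 0.69 to 2.22). The gelatinase Mmp2, made by mesenchyme, was 1.55-fold lower (9352 and 6394 reads), and Mmp14, its activator, had 12207 and 10958 reads (log2 -0.24), short of the rule. The macrophage elastase gene Mmp12 had 1 and 5 reads and was not measured. Red blood cell markers were higher in the same library (6 of 8, median 1.90), as were all 10 liver markers (median 7.40) and the heart and skeletal muscle markers. The part of these tissues in the protease values was not tested.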
